A study of Capsicum annuum and Capsicum annuum
Solanum lycopersicum with 48 samples.

Results

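Heat shock protein (HSP) and heat stress transcription factor (HSF) genes of tomato (*Solanum lycopersicum*) were followed in graft junctions. They are 10 of the 33604 tomato genes in the tables, named by a fixed list of identifiers that was drawn up with earlier results of these data known. The chaperones are 5 small HSP genes (Solyc06g076520, Solyc06g076540, Solyc06g076560, Solyc06g076570 and Solyc08g062340), HSP101 (Solyc03g115230) and HSP21 (Solyc03g082420). The factors are HSFA1a (Solyc08g005170), HSFA2 (Solyc08g062960) and HSFB1 (Solyc02g090820). The tables hold identifiers without names, so these names were not checked against an annotation and no sequence is shown.

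In plants, heat and other stresses that unfold proteins activate HSFs, which bind the promoters of HSP genes. Small HSPs hold unfolding proteins in a state from which they can be refolded, HSP101 pulls proteins out of aggregates, and HSP21 is a small HSP of plastids. In tomato, HSFA1a is known as the master regulator of the heat response, HSFA2 as a strongly heat-induced factor that acts beside it, and HSFB1 as a factor that can act as a coactivator or a repressor. All the plants here were grafted, and none was labelled as heat treated.

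The 9 groups with tomato tissue were junctions of tomato self-grafts, pepper:tomato heterografts and tomato:pepper heterografts (scion:stock notation), each at 1, 3 and 5 days after grafting (DAG), with 4 libraries per group. The tomato was the variety M82 and the pepper (*Capsicum annuum*) the variety Big Dipper, grafted as seedlings. Each library came from 1 junction with the stem above and below it, so all cell types of the stem were measured together and the tomato part of a heterograft was its stock in pepper:tomato and its scion in tomato:pepper. Plants stood in the dark for the first 3 days, so 5 DAG and the return of light cannot be told apart. There was no ungrafted group, and pepper self-grafts (the other 3 of the 12 groups) hold no tomato tissue and were not used.

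The deposited unit was FPKM, fragments per kilobase of gene and 1000000 mapped fragments, which allows levels to be compared between genes. Each group had 1 pooled value for its 4 libraries. There was therefore no spread between replicates, no test and no p-value for any difference below, and library depth is unknown. Changes are given as log2 ratios of FPKM + 1, later over earlier, and a change is called past 2-fold at an absolute value of at least 1. Genes counted had at least 1 FPKM in at least 1 group of the graft. The organism field of the tomato self-graft samples named pepper, but their titles and the gene identifiers of their table were tomato.

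In the heterografts FPKM was scaled over tomato and pepper genes together. Tomato genes held 17.9%, 51.7% and 23.1% of the summed values for pepper:tomato at 1, 3 and 5 DAG, and 59.5%, 29.7% and 49.2% in tomato:pepper. The order of the heterografts at 3 DAG was thus the opposite of that at 1 and 5 DAG. Across 18661 tomato genes, as a description, the difference between the heterografts correlated at r = 0.56 between 1 and 5 DAG but at -0.50 between 1 and 3 DAG and -0.59 between 3 and 5 DAG. Results that use 3 DAG heterograft values are therefore given as labelled and with the 3 DAG groups exchanged between the heterografts, and comparisons of 5 with 1 DAG do not use them. The median change of tomato genes differed with their level. At the levels of the HSP and HSF genes counted here it ran from 0.15 to 1.83 in pepper:tomato from 1 to 3 DAG. In the self-graft, where no tomato share exists, it ran from -0.24 to 0.64 over the same days. Heterograft changes are therefore also given centred by level, as the log2 ratio minus a running median over tomato genes of like level. Tomato-scaled FPKM is FPKM after each group's tomato genes were brought to the same sum of 1000000.

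The 10 genes differed widely in level. HSFB1 was the highest of the 10 in every group of the tomato self-graft, at 146, 180 and 166 FPKM at 1, 3 and 5 DAG, and held 55.2% to 62.9% of the summed FPKM of the 10 genes there. The small HSP gene Solyc06g076520 came next at 50.7, 56.6 and 82.7 FPKM. HSFA1a followed at 17.9, 27.5 and 20.5 FPKM. Below these stood the small HSP genes Solyc06g076570 (7.41, 9.67 and 15.1 FPKM) and Solyc06g076560 (7.11, 4.73 and 6.89 FPKM) and the factor HSFA2 (4.82, 4.19 and 5.60 FPKM), whose orders crossed between times. Solyc08g062340 (1.17, 2.23 and 1.36 FPKM) and HSP101 (2.63, 0.863 and 1.97 FPKM) were near 1 FPKM. HSP21 and Solyc06g076540 stayed below 1 FPKM in all 9 groups, with highest values of 0.464 and 0.400 FPKM, and Solyc06g076540 was listed at 0 in 4 groups. The plastid small HSP and the chaperone HSP101 were thus at or near the bottom of the range in all grafts, and 8 of the 10 genes passed the filter in each graft.

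**Figure D1:**
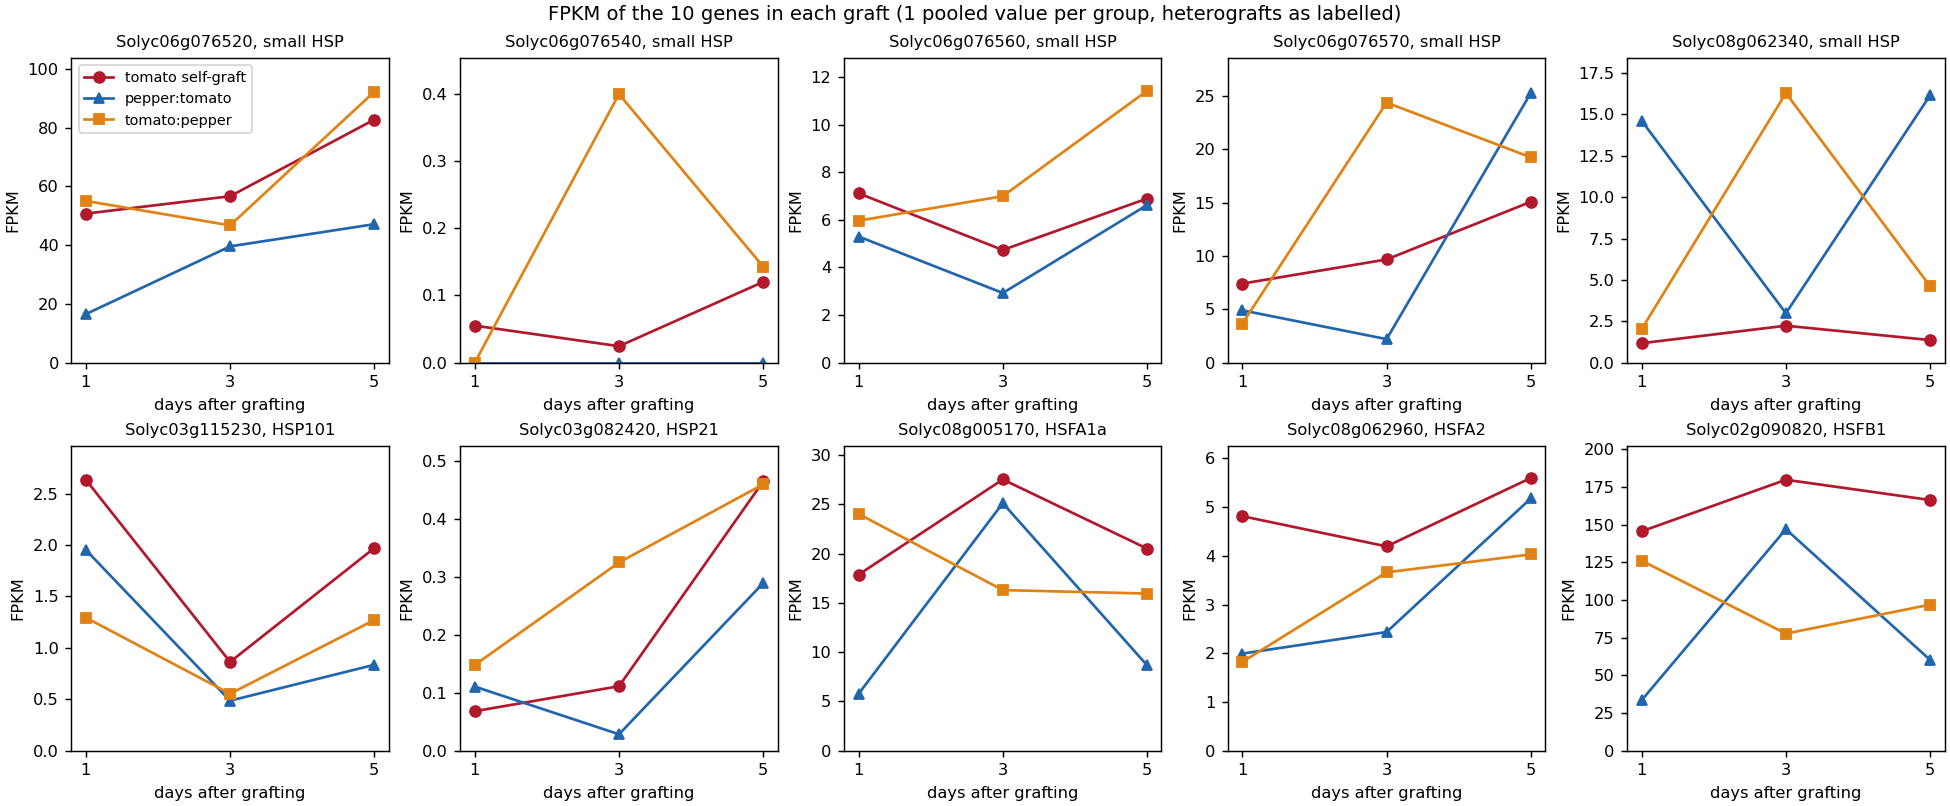
FPKM (vertical axis, a separate linear scale for each gene) at 1, 3 and 5 days after grafting (horizontal axis) for the 10 genes, with red circles for the tomato self-graft, blue triangles for pepper:tomato and orange squares for tomato:pepper as labelled. Each point is 1 pooled value per group, so there are no error bars. HSP101 was lowest at 3 DAG in all 3 grafts, and Solyc08g062340 reached 14.6 to 16.3 FPKM in 3 heterograft groups against at most 2.23 FPKM in the self-graft.

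In the tomato self-graft, none of the 8 genes passed 2-fold as deposited in any of the 3 comparisons, where 17.1% of 19271 tomato genes did from 1 to 3 DAG, 11.1% from 3 to 5 DAG and 12.4% from 1 to 5 DAG. The median log2 change of the 8 genes was 0.23, 0.40 and 0.19 in these comparisons, beside 0.06, -0.05 and -0.01 for all tomato genes. The first of these turned to -0.12 when centred by level. With tomato genes scaled to the same sum it turned to -0.46, beside -0.51 for all tomato genes. With that scaling 2 genes passed from 1 to 3 DAG (HSP101 at -1.32 and Solyc06g076560 at -1.08, where 25.5% of all genes passed) and 2 from 3 to 5 DAG (Solyc06g076520 at 1.13 and Solyc06g076570 at 1.14, 14.4%). With a pseudocount of 0.1 FPKM 1 gene passed in each comparison, HSP101 from 1 to 3 DAG (24.2%) and from 3 to 5 DAG (15.6%) and Solyc06g076570 from 1 to 5 DAG (17.9%). The 2 highest small HSP genes had their highest value at 5 DAG, with log2 changes over 1 DAG of 0.94 for Solyc06g076570 and 0.70 for Solyc06g076520. For Solyc06g076520 the change from 3 to 5 DAG was 0.54 as deposited and 1.02 when centred by level, where it was the one gene of the 8 past 2-fold (8.31%). HSP101 instead had its highest value at 1 DAG. Its log2 change from 1 to 3 DAG was -0.96. Centred on the median of all tomato genes it was -1.03 and past 2-fold, as were 16.4%. From 3 to 5 DAG the change of HSP101 was 0.67, higher like those of the 2 small HSP genes. HSFA1a (0.60) and HSFB1 (0.30) were higher at 3 than at 1 DAG as deposited, but when tomato genes were scaled to the same sum the values were -0.07 and -0.39. Solyc06g076520 (0.16 against -0.53) and Solyc06g076570 (0.34 against -0.28) turned in the same way, so the direction of these 4 genes from 1 to 3 DAG depended on the scale. HSFA2 varied between 4.19 and 5.60 FPKM.

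From 1 to 5 DAG the chaperone gene Solyc06g076570 had the largest change of the 8 genes in each graft. Its FPKM was 7.41 and 15.1 in the tomato self-graft, 4.90 and 25.3 in pepper:tomato, and 3.66 and 19.2 in tomato:pepper. The log2 changes were 0.94, 2.15 and 2.12 as deposited, and 0.95, 2.01 and 2.45 when centred by level. It was thus higher at 5 than at 1 DAG in all 3 grafts, and past 2-fold in both heterografts. In the self-graft it was just under 2-fold with the pseudocount of 1 FPKM and just past it, at 1.02, with 0.1 FPKM, and the difference between grafts could not be tested. The small HSP gene Solyc06g076520 was also higher at 5 DAG in all 3 grafts, at 16.5 and 47.1 FPKM in pepper:tomato and 55.0 and 92.2 FPKM in tomato:pepper. Its log2 changes were 1.46 and 0.73 as deposited, and 1.31 and 1.30 when centred by level, beside 0.66 in the self-graft on that scale. The 4 identifiers that begin with Solyc06g0765 are close in number on chromosome 6 and are called the chromosome 6 stretch here. Whether these genes are adjacent could not be checked. If they are near-identical copies, their reads may have been split between them, so that the values of each are uncertain.

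For the factor HSFA2 the change from 1 to 5 DAG was 0.18 in the self-graft, 1.05 in pepper:tomato (1.99 to 5.18 FPKM) and 0.83 in tomato:pepper (1.82 to 4.03 FPKM). Centred by level the heterograft values were 0.97 and 0.87, so both stood just under 2-fold on that scale. HSP101 was lower at 5 than at 1 DAG in pepper:tomato, at 0.836 against 1.95 FPKM, and nearly equal in tomato:pepper, at 1.27 against 1.29 FPKM. Small HSP gene Solyc06g076560 differed between the heterografts, with level-centred changes of 0.18 in pepper:tomato and 1.11 in tomato:pepper. Over the 8 genes, 3 were past 2-fold in pepper:tomato as deposited (15.1% of all tomato genes) and 2 when centred by level (14.2%), all higher at 5 DAG. In tomato:pepper 1 was past 2-fold as deposited (16.6%) and 3 when centred by level (13.6%), again all higher, and all of those on the centred scale were genes of the chromosome 6 stretch. The median of the 8 genes in pepper:tomato was 0.67, and in tomato:pepper 0.78, beside 0.09 and -0.27 for all tomato genes.

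**Figure D2:**
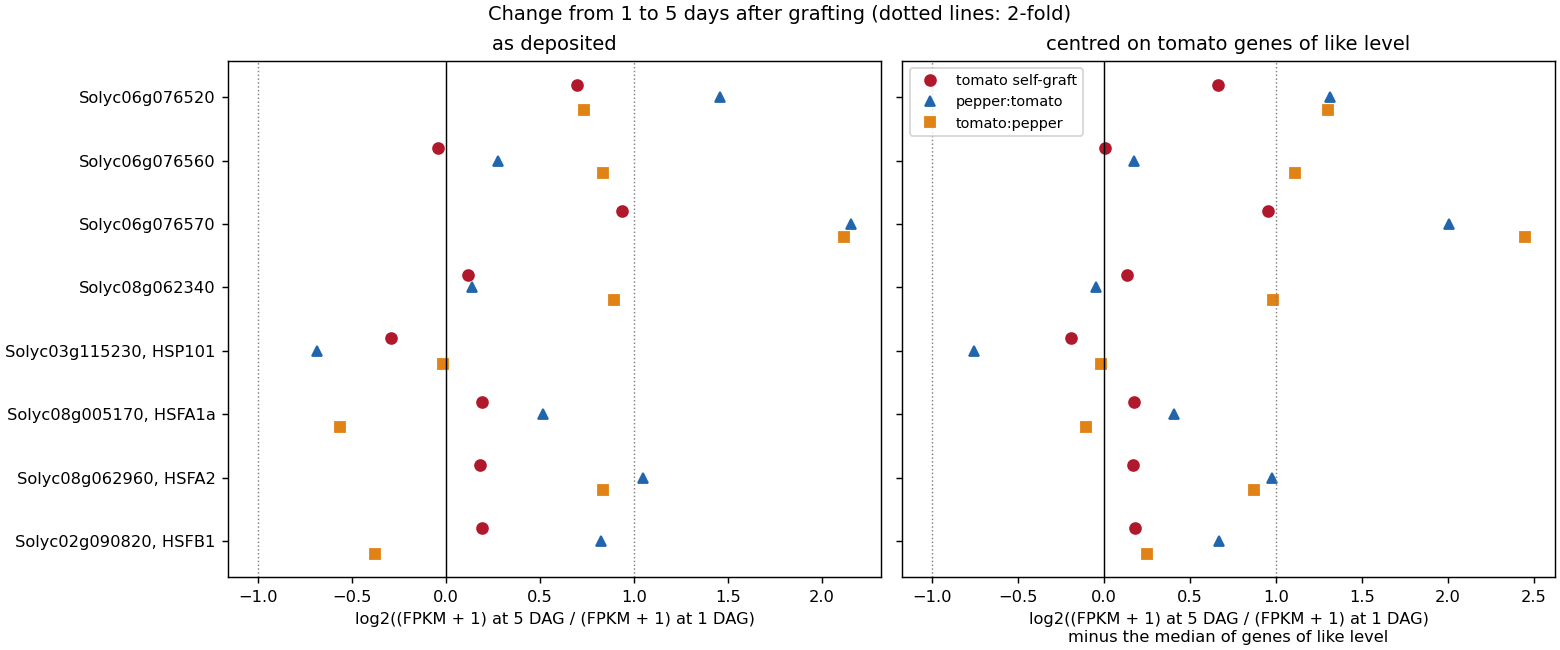
Log2 ratio of FPKM + 1 at 5 over 1 day after grafting (horizontal axis) for the 8 genes that passed the filter (rows), as deposited on the left and minus the median of tomato genes of like level on the right; symbols mark the 3 grafts, and dotted lines mark 2-fold. Solyc06g076570 lies farthest to the right in all 3 grafts in both panels, and the heterograft values of HSFA1a and HSFB1 in tomato:pepper lie below 0 on the left, at -0.56 and -0.38, and nearer 0 on the right, at -0.11 and 0.25.

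The changes that involve 3 DAG depended on which heterograft that day's values belong to. As labelled, pepper:tomato had 4 genes past 2-fold from 1 to 3 DAG as deposited, 3 higher and 1 lower, where 50.2% of all tomato genes passed. Centred by level, 4 were lower and none higher (34.3%). These 4 were chaperone genes, with level-centred changes of -2.95 for Solyc08g062340, -1.45 for Solyc06g076570, -1.31 for Solyc06g076560 and -1.14 for HSP101. With 3 DAG exchanged, 4 genes were higher and none lower as deposited (31.9%), and when centred by level 1 was higher (Solyc06g076570, 1.31) and 1 lower (HSP101, -1.03), where 22.6% passed. The genes past 2-fold in the same direction with either labelling depended on the scale. They were Solyc06g076520 (1.21 and 1.45), HSFA1a (1.95 and 1.35) and HSFB1 (2.10 and 1.19) as deposited, all higher, and HSP101 when centred by level, which was lower. In pepper:tomato HSP101 reached 1 FPKM only at 1 DAG, with either labelling. It was therefore counted only through the group where it was high, which favours a fall, and nothing is read from its lower calls there.

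From 3 to 5 DAG in pepper:tomato, 4 genes passed as deposited, 2 higher and 2 lower (48.7% of all tomato genes), and 5 when centred by level, all higher (30.7%). Those 5 were Solyc06g076570 (3.94), Solyc08g062340 (3.14), Solyc06g076520 (1.82), Solyc06g076560 (1.64) and HSFA2 (1.31). With 3 DAG exchanged none passed as deposited (18%) or when centred by level (9.6%). In tomato:pepper from 1 to 3 DAG, 2 passed as deposited (25.5%) and 3 when centred by level (17.8%), namely Solyc06g076570 (3.16), Solyc08g062340 (3.09) and HSFA2 (1.13), and with 3 DAG exchanged none passed on either scale (10.4% as deposited and 9.78% when centred by level). From 3 to 5 DAG in tomato:pepper, 1 gene passed on either scale, Solyc08g062340, which was lower at 5 DAG (9.73% as deposited and 8.84% when centred by level). With 3 DAG exchanged, 3 small HSP genes passed there on either scale, all higher at 5 DAG (21.7% as deposited and 18.3% when centred by level), with level-centred changes of 2.82 for Solyc06g076570, 1.74 for Solyc06g076520 and 1.72 for Solyc06g076560.

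HSP101 had its lowest value of each graft at 3 DAG whichever way the 3 DAG groups were assigned. Its FPKM at 1, 3 and 5 DAG was 2.63, 0.863 and 1.97 in the tomato self-graft, 1.95, 0.486 and 0.836 in pepper:tomato, and 1.29, 0.554 and 1.27 in tomato:pepper. The 3 DAG values of the heterografts differed by little, so their exchange moved the changes from 1 to 3 DAG only from -0.99 to -0.93 in pepper:tomato and from -0.56 to -0.63 in tomato:pepper. At these levels the pseudocount of 1 FPKM makes the log2 ratio smaller than the ratio of the FPKM values.

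Small HSP gene Solyc08g062340 separated the heterograft groups by their tomato share. Its FPKM was 14.6 at 1 DAG and 16.2 at 5 DAG in pepper:tomato and 16.3 at 3 DAG in tomato:pepper, the 3 groups in which tomato genes held 17.9% to 29.7% of FPKM. In the other 3 heterograft groups, with 49.2% to 59.5%, it was 4.62 at 5 DAG and 2.02 at 1 DAG in tomato:pepper and 2.99 at 3 DAG in pepper:tomato. The groups did not overlap, and all heterograft groups except tomato:pepper at 1 DAG were above the highest self-graft value of 2.23 FPKM. It was the only one of the 10 genes that was higher in all 3 low-share groups, as were 2.36% of 18661 tomato genes as deposited and 13.8% on the tomato-scaled values. With the 3 DAG groups exchanged this split is the same as the split between pepper:tomato and tomato:pepper, so the tomato share and the graft combination cannot be told apart. The share of pepper reads that aligned to this tomato gene was not tested.

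The factors HSFA1a and HSFB1 were, by contrast, mostly higher where the tomato share was higher. HSFB1 was 33.5, 60.2 and 77.7 FPKM in the low-share groups (pepper:tomato at 1 and 5 DAG, tomato:pepper at 3 DAG) and 96.9, 147 and 126 FPKM in the others (tomato:pepper at 5 DAG, pepper:tomato at 3 DAG, tomato:pepper at 1 DAG). It was the one gene of the 10 that was lower in all 3 low-share groups, as were 43.9% of tomato genes, and on the tomato-scaled values it was not, beside 7.14% of genes. HSFA1a ranged from 5.77 FPKM in pepper:tomato at 1 DAG to 25.1 FPKM in pepper:tomato at 3 DAG, with 16.3 and 16.0 FPKM in tomato:pepper at 3 and 5 DAG. Once tomato genes were scaled to the same sum, HSFA1a lay between 19.6 and 31.6 and HSFB1 between 128 and 212 over all 9 groups. Among 14887 tomato genes that reached 5 FPKM, 3.39% varied less than HSFA1a and 4.57% less than HSFB1 by the ratio of highest to lowest scaled value + 1. The median ratio over these genes was 3.64, against 1.59 for HSFA1a and 1.65 for HSFB1, while 2 small HSP genes were near the other end, with 25.9 for Solyc06g076570 and 29.1 for Solyc08g062340. HSFA2, the heat-induced factor, had a ratio of 6.06. These ratios depend on the scale. From 1 to 3 DAG in pepper:tomato as labelled, the median tomato-scaled change of all tomato genes was -0.86. The change of HSFA1a there was 0.09 on tomato-scaled values and 0.57 when centred by level, and that of HSFB1 was 0.10 and 0.27.

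**Figure D3:**
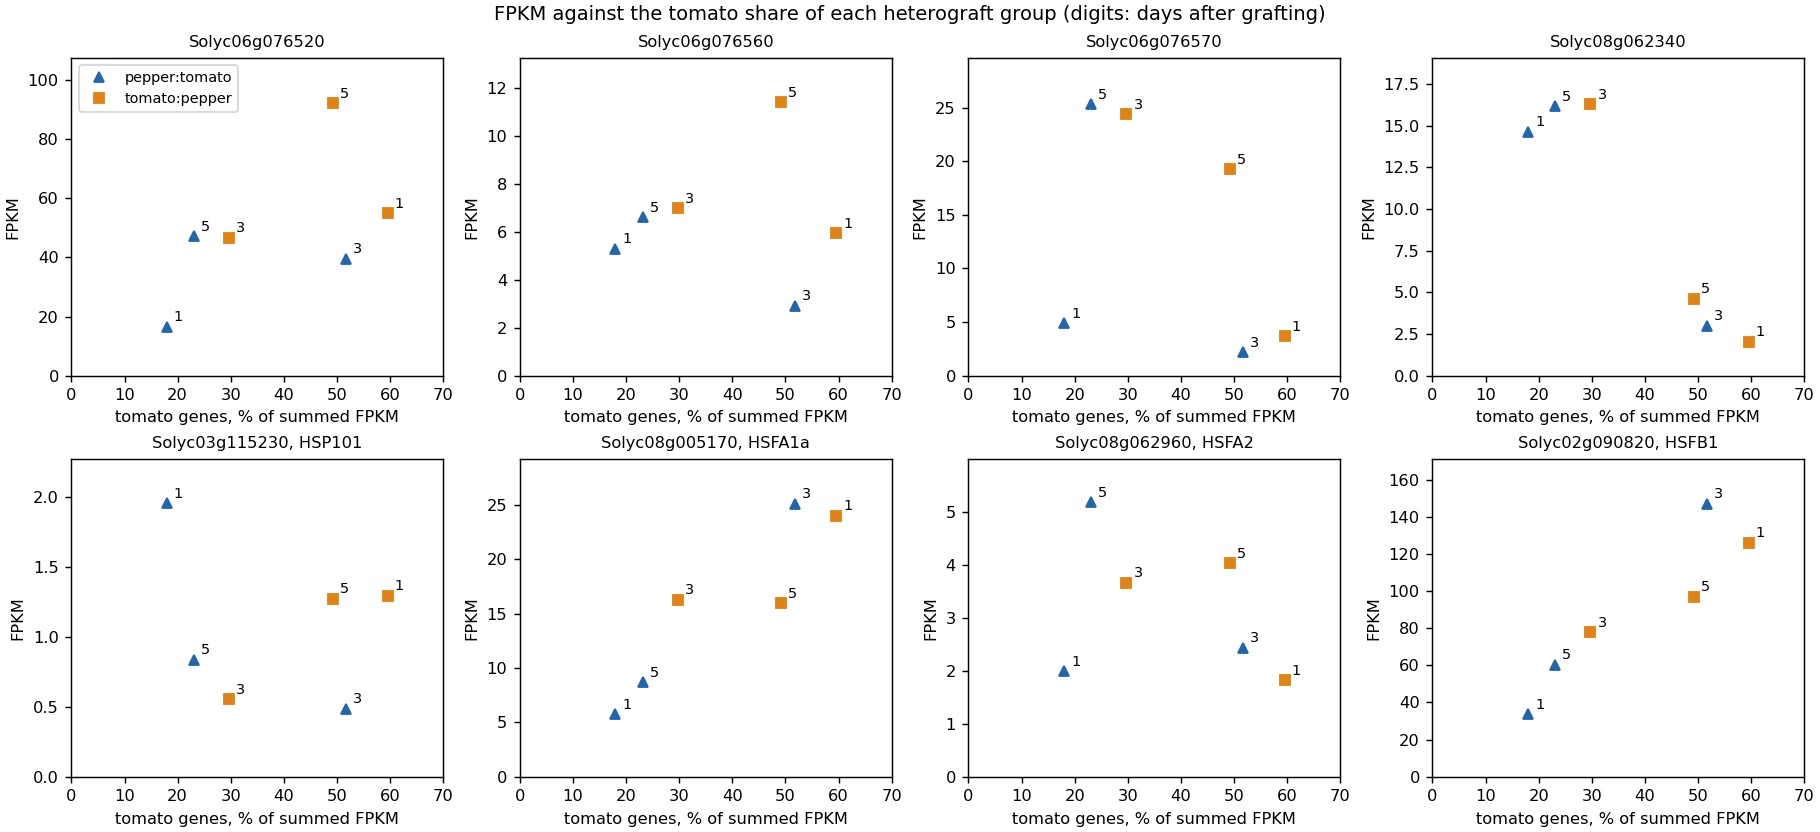
FPKM of the 8 genes (vertical axis, a separate linear scale for each) against the percentage of summed FPKM held by tomato genes (horizontal axis) in the 6 heterograft groups; blue triangles are pepper:tomato, orange squares tomato:pepper, and the digit is the day after grafting. HSFB1 and HSFA1a mostly lie higher where the tomato share is higher (HSFA1a is at 16.3 FPKM at a share of 29.7% and at 16.0 FPKM at 49.2%), and Solyc08g062340 is at 14.6 to 16.3 FPKM in the 3 groups of low share and at 2.02 to 4.62 FPKM in the 3 of high share.

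Set side by side at 1 and 5 DAG and centred by level, the 2 heterografts differed past 2-fold in the same 2 chaperone genes, as did 24.2% of 18661 tomato genes at 1 DAG and 11.6% at 5 DAG. For Solyc08g062340 the level-centred difference of tomato:pepper over pepper:tomato was -3.42 at 1 DAG and -2.36 at 5 DAG, and for Solyc06g076570 it was -1.24 and -1.26. The differences of HSFA2 were -0.50 and -0.88, those of Solyc06g076560 -0.87 and -0.02, those of HSFA1a 0.52 and 0.00, and those of HSFB1 0.05 and -0.32. As deposited, Solyc08g062340 differed by -2.37 and -1.61 but Solyc06g076570 only by -0.34 and -0.38. On that scale 4 of the 8 genes were past 2-fold at 1 DAG (49.5% of all genes) and Solyc08g062340 alone at 5 DAG (25.1%). At 3 DAG as labelled the level-centred differences of Solyc08g062340 and Solyc06g076570 had the opposite sign, at 2.65 and 3.50. Within the chromosome 6 stretch, Solyc06g076520 held 77.7% to 79.7% of the summed FPKM in the self-graft and 59.5% to 88.5% in the heterografts, and Solyc06g076570 held 11.3% to 14.4% and 4.93% to 32.0%.

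Across the 9 groups, as a description over pooled values that share the scaling of each group, Pearson's r of log2 tomato-scaled FPKM + 1 was above 0 for all 28 pairs of the 8 genes, from 0.04 to 0.92 with a median of 0.59. Values above 0 were common, since HSFA1a at 0.04 with HSP101 ranked 10400 of 14887 tomato genes by r with HSP101. Pairs among all tomato genes were not computed, so nothing is read from the 28. The closest pair was a small HSP gene and a factor, Solyc06g076570 and HSFA2 (0.92), and the least alike were HSP101 and HSFA1a (0.04). The 5 tomato genes most like HSP101 were Solyc03g097020 (0.995), Solyc12g043110 (0.995), Solyc02g069770 (0.994), Solyc09g083080 (0.991) and Solyc11g039830 (0.990). With only 9 points such values are common, and 1222 of 14887 genes reached 0.9. The ranked genes all reached 5 FPKM in at least 1 group, whereas HSP101 itself was at most 2.63 FPKM. The tomato-scaled value of HSP101 was 9.01 in pepper:tomato at 1 DAG, against a median of 2.13 over the 9 groups. Solyc12g043110 is in the list of further chaperones described next, and was the only listed identifier among the 50 genes most like HSP101, which held none of the other HSP and HSF genes above.

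Further genes of the same pathway were taken from lists of identifiers of HSFs, small HSPs and other chaperones with their cofactors, drawn up from general knowledge of the tomato annotation and not checkable in the tables. Of 20 chaperone identifiers, 16 were counted in the self-graft, and 6 of them were past 2-fold lower and none higher from 1 to 3 DAG, with a median of -0.86 beside 0.06 for all tomato genes. Of all tomato genes 4.84% were lower and 12.2% higher. From 1 to 5 DAG 4 were lower (5.8% of all tomato genes) and 1 higher (6.64%). Solyc12g015880 had the largest change from 1 to 3 DAG among those that reached 10 FPKM, from 96.7 to 18.3 FPKM (-2.34), and stood at 59.4 FPKM at 5 DAG. Solyc09g010630 was left out of these counts because it was listed at 0 at 3 DAG, where its values at 1 and 5 DAG were 2686 and 4012 FPKM.

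In pepper:tomato 15 of 18 chaperone identifiers were past 2-fold lower from 1 to 3 DAG when centred by level (17% of all tomato genes), and 13 with 3 DAG exchanged (10.4%). In tomato:pepper as labelled, 1 of 17 was lower (6.83% of all tomato genes) and 1 higher, where 17.8% of all tomato genes passed in either direction. With 3 DAG exchanged 5 were lower (5.69%). In the self-graft HSP101 thus had the direction of most of this list at 3 DAG, where the small HSP genes did not share one direction. Of 13 HSF identifiers counted in the self-graft, 3 were higher and 1 lower from 1 to 3 DAG, beside the 12.2% and 4.84% of all tomato genes given above, and the largest change was that of Solyc12g007070, from 6.81 to 29.4 FPKM (1.96). Of 7 further small HSP identifiers 1 was higher from 1 to 3 DAG, Solyc09g011710, from 271 to 604 FPKM (1.15), and 2 were higher from 1 to 5 DAG, beside 12.2% and 6.64% of all tomato genes. Their median from 1 to 5 DAG was 0.66, and that of the HSF identifiers was -0.11.

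**Figure D4:**
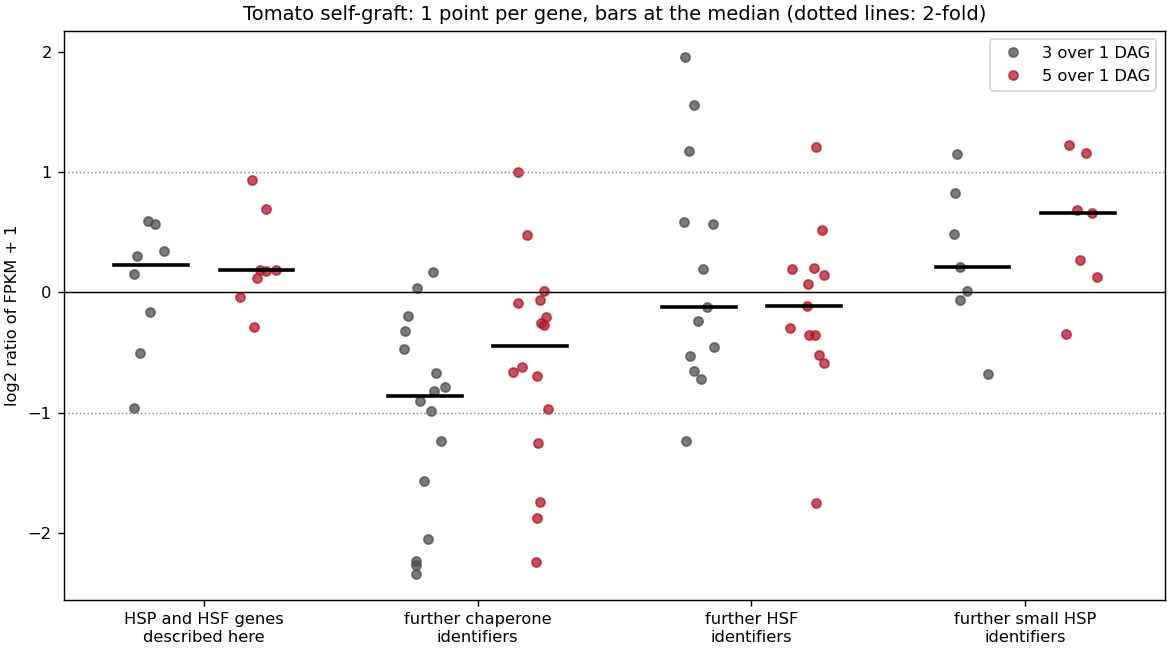
Log2 ratio of FPKM + 1 (vertical axis) in the tomato self-graft at 3 over 1 day (grey) and 5 over 1 day (red) after grafting, with 1 point per gene and a bar at the median, for the 8 HSP and HSF genes and the 3 further lists of identifiers (horizontal axis; points are spread sideways only for legibility). The further chaperones have the lowest median, -0.86 at 3 over 1 DAG, and none of the 8 genes as deposited reaches the dotted lines at 2-fold.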

How the data were processed

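RNA was extracted from graft junctions with TRIzol, and poly(A) libraries were made with a directional kit and sequenced as single reads. The FPKM values were made by the authors with the TuxNet pipeline and its default parameters (fastq-mcf for trimming, HISAT2 for alignment and Cufflinks for quantification), whose versions are not given in the sources used here. Tomato self-graft reads were aligned to the tomato genome, and heterograft reads to the tomato and pepper genomes joined, so reads of sequence alike in both species can be shared or misplaced. The self-graft and heterograft tables were normalized separately, and levels set across them carry that limit. The authors' own fold changes and q-values, also in the tables, were not used, and neither was the pepper self-graft table.

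Columns were mapped to groups by their names. Log2 ratios used a pseudocount of 1 FPKM and genes with at least 1 FPKM in at least 1 group of a graft. With 1 pooled value per group, none of the comparisons had a test. Named beside the 10 genes were the 5 most like HSP101 and, per list, the gene with the largest change from 1 to 3 DAG in the self-graft among those at 10 FPKM or more. The genes and lists were chosen with earlier results of these data known. Centring by level was added after seeing the data. Calculations used Python 3.11.15, pandas 2.3.3 and numpy 2.4.6. A check on simulated data covered only the 2-fold calls as deposited and the exchange of the 3 DAG groups. Centring by level, scaling to the same sum, the split by tomato share, correlations and list counts were not checked in this way.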

Additional observations from a re-analysis of the deposited data

How the results depend on the processing

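No paired analysis was possible because each group had 1 pooled value and its column carried no replicate number; for the same reason no replicate could be left out. Of 84 medians recomputed under the alternatives, 73 moved by less than 1.5 times, and none of the medians as deposited was past 2-fold. The 11 that moved more were these. With tomato genes rescaled to the same total, the median became -0.46 in the tomato self-graft and -2.01 in pepper:tomato from 1 to 3 DAG, 2.12 in pepper:tomato from 3 to 5 DAG and 0.65 in tomato:pepper from 1 to 3 DAG. The medians of all tomato genes on that scale were, in the same order, -0.51, -0.86, 0.67 and 0.0012. In pepper:tomato, centring on the median of all tomato genes gave -1.01 from 1 to 3 DAG and 1.26 from 3 to 5 DAG, and centring by level, added after seeing the data, gave 1.48 from 3 to 5 DAG. Centring by level also gave 0.65 in tomato:pepper from 1 to 3 DAG. With the 3 DAG groups exchanged the median from 1 to 3 DAG in pepper:tomato was 0.91, with centring on the median as well 0.44, and with the 4 genes of the chromosome 6 stretch summed 0.46. The values as deposited were 0.23, -0.24, 0.58 and -0.02.

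Of 585 changes of single genes, 454 moved by less than 1.5 times, 116 moved more and 15 past 2-fold changed sign. The sign changes all involved 3 DAG in a heterograft. With rescaling, Solyc06g076520 became -0.76 from 1 to 3 DAG and HSFA1a (Solyc08g005170) 0.11 and HSFB1 (Solyc02g090820) 0.35 from 3 to 5 DAG in pepper:tomato. With centring by level, Solyc06g076520 became -0.39 and HSFB1 0.39 in the same comparisons, and HSFB1 was 0.0086 and 0.60 with the 3 DAG groups exchanged and centring on the median or by level. With the exchange alone, Solyc08g062340 became 0.15 from 1 to 3 DAG and -0.011 from 3 to 5 DAG in pepper:tomato, and 0.49 in tomato:pepper from 3 to 5 DAG (0.62 and 0.45 with centring on the median and by level). Solyc06g076570 became -0.54 in tomato:pepper from 1 to 3 DAG with the exchange, and -0.41 and -0.38 with those centrings. Of 84 counts of genes past 2-fold, 57 were within 1.5 times the count given and 27 were not. In tomato:pepper from 1 to 5 DAG the count of 1 became 5 with rescaling or with centring on the median. The share of all tomato genes past 2-fold was not computed on those scales, so nothing is read from the 5. Depth is unknown, so counting error at low FPKM could not be given.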
